A study of Mus musculus with 22 samples.

Results

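Late Spinal Cord cells are the spinal cord progenitor-like cells that mouse gastruloids form in culture. They were taken here as all cells that carry the cell type name Late Spinal Cord in the authors' deposited cell table, and there were 5875 of them among 77674 cells (7.56%) with 25 type names. A gastruloid is an aggregate of embryonic stem cells that forms cell types of the early embryo without extraembryonic tissue. All groups were of the E14Tg2A line, started at 300 cells per well, aggregated for 48 h and then given 3 µM CHIR99021, an inhibitor of GSK3 that activates Wnt signalling, and the labels give no difference in genotype or treatment between them. The groups differed in day of culture and in experiment: MULTI-seq 1 held 24 gastruloids of day 5, pool B of MULTI-seq 2 held 12 each of days 4 and 4.5, and MULTI-seq 3 held 24 of day 3 and 16 each of days 3.5, 4, 4.5 and 5. In these experiments the cells of each gastruloid were marked with a lipid-anchored DNA barcode before pooling, so that the gastruloid is the replicate. Pooled gastruloids without such calls came from 10X lanes of days 3 and 4 and from pool C of MULTI-seq 2. Of the 5875 cells, 4806 were assigned to 1 gastruloid, 218 were called barcode doublets, 155 carried no barcode and 696 came from lanes without calls.

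In the embryo, the caudal neural tube is laid down by axial progenitors at the tail end that express T, Nkx1-2 and Cdx2 under Wnt and FGF signals. Cells that leave this zone meet retinoic acid from the somites, switch off the progenitor genes, and turn on neural progenitor genes such as Pax6 and Irx3. Hox genes of the neural tube are opened in order from 3' to 5' and record position along the body, while Sonic hedgehog from below and BMP and Wnt signals from above divide the tube into dorsal, intermediate and ventral progenitor domains. Notch signalling, read out by Hes5, keeps these progenitors from becoming neurons.

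The 18 lanes held 30065021 to 238431052 unique molecular identifiers (UMIs, the counted molecules) in the authors' final cells. A Late Spinal Cord cell had a mean of 10652 to 14329 UMIs per gastruloid in MULTI-seq 1 and of 29937 to 38840 on days 4.5 and 5 of MULTI-seq 3, so levels of gastruloids are compared only within an experiment. Of the Late Spinal Cord barcodes, 3 occurred in more than 1 lane, against 732 among all cells. Levels are given as CPM, the UMIs of a gene per 1000000 UMIs of all Late Spinal Cord cells of a gastruloid, for gastruloids with at least 20 such cells. In these sums, fewer cells with a gene and less RNA of it per cell cannot be told apart. The labels do not say whether gastruloids of a day came from separate cultures, so p-values measure the spread between gastruloids.

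The name was checked against its markers. Within each experiment, types with at least 50 cells were ranked by their pooled level. In MULTI-seq 3, 3 of the 4 markers were highest in Late Spinal Cord among 24 types: Pax6, a transcription factor of neural progenitors, at 39.6 CPM, Irx3, a caudal neural homeobox factor, at 120.4 CPM, and Hes5, the Notch target, at 260 CPM. Sox1, an early pan-neural factor, stood at 78.0 CPM and was second to Late Neurectoderm at 119.6 CPM. In MULTI-seq 1 and MULTI-seq 2 only Irx3 was highest in Late Spinal Cord, and the other 3 were second to Late Neurectoderm, with Pax6 at 42.2 against 62.3 CPM and Hes5 at 340 against 443 CPM in MULTI-seq 1 and Pax6 at 24.1 against 35.9 CPM and Hes5 at 188 against 190.4 CPM in MULTI-seq 2. So the markers set Late Spinal Cord apart from most types, but only Irx3 was higher there than in Late Neurectoderm in all 3 experiments. These genes were among those clustered, so their levels describe the type and are no test of it. When each day 5 cell of MULTI-seq 3 was thinned to 5000 UMIs, 18.9% of 2098 cells had a Pax6 UMI, 43.8% an Irx3 UMI and 58.3% a Hes5 UMI. Unthinned, at a median of 31399 UMIs per cell, the shares were 56.7%, 93.5% and 87.8%. In Mature Somites, which should lack Pax6, the share with a Pax6 UMI was 0.72% when thinned in the same way and 3.92% unthinned, at a median of 24908 UMIs. Summed levels of endoderm, paraxial mesoderm, neural crest and endothelial markers were low in each day 5 gastruloid of MULTI-seq 3, the type itself being pooled over all experiments. Other lists held genes that were not low there. The 7 tested of 13 axial progenitor genes had a median of 5.97 CPM, but Cdx2 among them averaged 61.7 CPM. The 2 tested of 14 brain regional genes had a median of 32.6 CPM. The 9 endoderm markers summed to 7.62 to 18.6 CPM, against 5425 in Mature Endoderm, and the 14 paraxial mesoderm markers to 23.9 to 52.5 CPM, against 1783 in Mature Somites. The 9 neural crest markers summed to 10.5 to 22.2 CPM and the 9 endothelial markers to 22.9 to 30.9 CPM, against 2078 in Endothelium. The notochord and floor plate ligand Shh had a UMI in 0.143% of the 2098 cells unthinned, against 0.094% in Mature Somites.

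In MULTI-seq 3, Late Spinal Cord cells were nearly absent on day 3, with 2 among 5778 cells. They were found at low mean shares in 9 of 16 gastruloids on day 3.5 (1.66%) and 3 of 16 on day 4 (1.37%), and on days 4.5 and 5 they made up large parts of some gastruloids and almost nothing of others. None were found among 3058 cells of the 10X day 3 lane, for which the limit set by a count of 0 is 0.0981%, and 21 of 2440 cells (0.861%, exact Clopper-Pearson 95% interval 0.534 to 1.31) were found in the day 4 lane. Lanes that split the same pool gave similar shares, such as 15.9 to 17.2% in the 3 lanes of days 4.5 and 5 of MULTI-seq 3 and 12.9 to 13.4% in pool C of MULTI-seq 2, whose days were not separated. These intervals and limits cover counting error only.

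Between gastruloids of the same day the share was far from even. On day 3.5 of MULTI-seq 3 the lowest, median and highest shares were 0, 0.777 and 9.73%, and on day 4 they were 0, 0 and 12.3%, with 2 of 16 gastruloids holding 98.9% of that day's 94 cells. On day 4.5 they were 0.239, 2.23 and 36.1%, and on day 5 they were 0, 3.29 and 62.1%. The 7 day 4.5 gastruloids with at least 20 Late Spinal Cord cells lay between 21.1 and 36.1%, and the other 9 reached at most 2.78%. On day 5 the 8 gastruloids with at least 20 such cells ran from 5.27 to 62.1%, with the other 8 at most 1.32%. MULTI-seq 1 ran from 0 through a median of 3.88 to 74.4%, and the 12 gastruloids with at least 20 Late Spinal Cord cells held 96.6% of its 1658. In the authors' deposited table, which classes whole gastruloids, the 7 of day 4.5 were classed neural, the 8 of day 5 as 4 neural and 4 intermediate, and the 12 of MULTI-seq 1 as 8 neural and 4 intermediate. None of them was classed mesodermal.

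**Figure D1:**
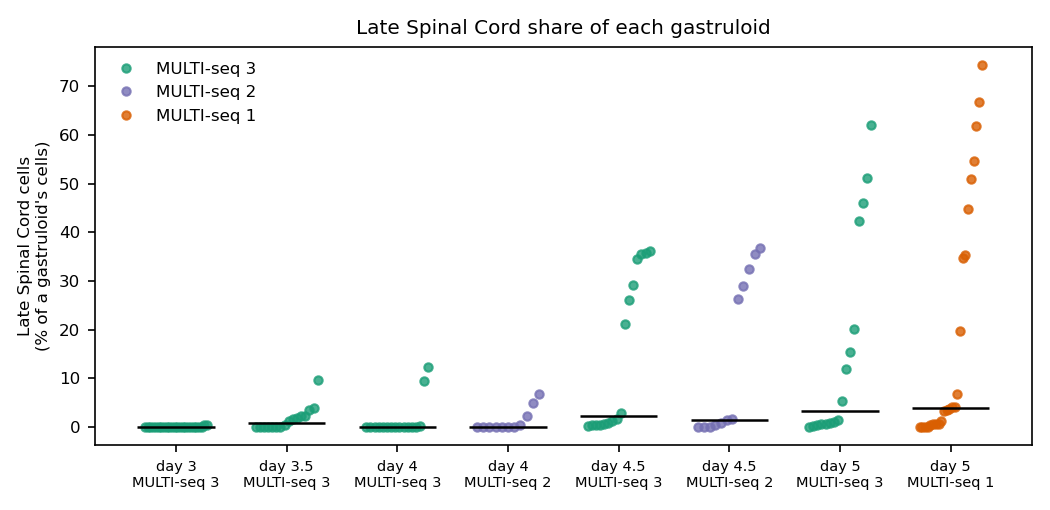
Share of Late Spinal Cord cells in each gastruloid, as a percent of its cells, by day and experiment. Each point is 1 gastruloid with at least 30 cells and the black line is the median of the group. In MULTI-seq 3 the highest gastruloid lies at 12.3% on day 4, where 2 of 16 have at least 20 such cells. On day 4.5 7 of 16 lie between 21.1 and 36.1%, and on day 5 8 of 16 lie between 5.27 and 62.1%, with the others of each day near 0.

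The mean share did not pass the test in any of the comparisons of days or experiments. In MULTI-seq 3 it was 16.2% ± 21.6 (SD, n = 16) on day 5 and 14.2% ± 15.9 (n = 16) on day 4.5 (two-sided permutation test, p = 0.767, adjusted p = 0.937 over 10 tests). The widest gap was in MULTI-seq 2, where the mean was 13.7% ± 16.4 (n = 12) on day 4.5 and 1.29% ± 2.35 (n = 11) on day 4. There, 9 of the 12 day 4.5 gastruloids lay above the day 4 median, with a permutation p of 0.0326 that became 0.326 after Benjamini-Hochberg adjustment. Day 5 gastruloids of MULTI-seq 3 and MULTI-seq 1 differed by -3.48 percentage points (permutation p = 0.661, adjusted p = 0.937), and day 4.5 gastruloids of MULTI-seq 3 and MULTI-seq 2 by 0.501 (permutation p = 0.937, adjusted p = 0.937). The share of Late cells among Early plus Late Spinal Cord cells was tested in 3 of the 10 comparisons and the share of Neurons among Neurons plus Late Spinal Cord cells in another 3, all with adjusted p = 0.937. Neurons were rare beside Late Spinal Cord cells in all 4 groups compared, at means of 0.205 to 1.22% of both types together.

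The authors had also mapped each cell to an embryo reference. Of the 5875 cells, 49.9% were mapped to spinal cord progenitors, 11.6% to dorsal spinal cord progenitors, 11.5% to neural tube, 7.44% to ectoderm and 3.27% to neuromesodermal progenitors. Brain types were also among the matches, with 4.15% mapped to hindbrain neural progenitors, 3.76% to ventral hindbrain progenitors, 2.42% to optic vesicle and 1.29% to the midbrain and hindbrain boundary. The experiments differed on day 5. Neural tube took 1.12% of the cells in MULTI-seq 1 and 20.4% in MULTI-seq 3, and optic vesicle took 6.51% and 0.334%. The share mapped to spinal cord progenitors was 82.1% of the day 3.5 cells, 76.6% on day 4, 55.5% on day 4.5 and 47.0% on day 5 of MULTI-seq 3. Neural tube took 4.26%, 19.6% and 20.4% on days 4, 4.5 and 5, and no cell on day 3.5. Dorsal spinal cord progenitors took 1.28%, 3.19%, 10.5% and 13.2% in the order of the days. These shares pool the cells of a day, and 33 of the 78 day 3.5 cells came from 1 gastruloid. Days 3.5 and 4 were in another pool than days 4.5 and 5, which cannot be told apart from the day. Mean mapped stage in embryonic days was 8.74 ± 0.0718 (SD, n = 8 gastruloids) on day 5 and 8.78 ± 0.0451 (n = 7) on day 4.5, and the ranges of 8.61 to 8.82 and 8.73 to 8.84 overlapped (exact two-sided permutation test, p = 0.300).

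Genes of the dorsal, intermediate and ventral progenitor domains were measured in these cells, while Nkx2-2, Atoh1 and Lmx1a of the outermost domains were hardly seen. Dbx1, the homeobox factor of the intermediate domains that give rise to V0 interneurons, was at 12.4, 28.7 and 33.4 CPM (lowest, median and highest of 8 gastruloids) on day 5 of MULTI-seq 3. In the 12 of MULTI-seq 1 it was at 0, 50.0 and 82.8 CPM, and all 3 gastruloids with Late Spinal Cord shares under 5% lay at the low end. Nkx6-1, which marks the ventral progenitor domains, was at 5.94, 14.9 and 20.4 CPM on day 5 of MULTI-seq 3. Pax3, a dorsal progenitor factor, was at 2.88, 4.81 and 25.6 CPM, with 1 gastruloid far above the median. The dorsal factor Pax7 averaged 1.42 ± 1.40 CPM (SD, n = 8) and the motor neuron progenitor factor Olig2 averaged 1.57 ± 2.13 CPM. Of other genes in the dorsal list, Msx1 averaged 5.12 ± 1.37 CPM and Zic5 15.0 ± 4.19 CPM on that day. At the outermost domains, the floor plate side factor Nkx2-2 and the dorsal interneuron factor Atoh1 had no UMI in any gastruloid of these groups, and the roof plate factor Lmx1a averaged 0.0548 CPM.

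Counted per cell at 5000 UMIs, 11.2% of day 5 cells of MULTI-seq 3 and 17.5% of those of MULTI-seq 1 had a Dbx1 UMI, against 0.031% and 0.43% in Mature Somites. The shares with an Nkx6-1 UMI were 7.39% and 6.79%, against 0.75% and 0.61% in Mature Somites. Cells with both were rare. In MULTI-seq 1, 6 of 289 Dbx1 cells had an Nkx6-1 UMI (2.08%), against 7.79% of the cells without Dbx1, and the share was lower among Dbx1 cells in 9 of 9 gastruloids with at least 50 cells, 5 of which had no cell with both. In MULTI-seq 3, 7 of 234 had one (2.99%), against 7.94%, and it was lower in 5 of 8 gastruloids, 3 of which had no cell with both. With so few cells a 0 says little: from the 2 shares, under 1 cell with both was expected in 1 of the 9 and in 4 of the 8, and among the others the share was lower in 8 of 8 and in 3 of 4. No test over cells was made, because cells of 1 gastruloid are not replicates.

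Across days 3.5 to 5 of MULTI-seq 3 the cells with the same name held very different levels of positional genes. Hoxa9, a trunk Hox gene, was at 0.883 CPM in the single day 3.5 gastruloid with enough cells, 0.565 and 1.46 CPM in the 2 of day 4, at a median of 21.4 CPM on day 4.5 and 76.8 CPM on day 5. Hoxc9, its paralog in the HoxC cluster, went from 9.71 CPM on day 3.5 to 9.51 and 16.4 CPM on day 4 and to medians of 95 and 172 CPM. Hoxb9 held close to 1 level, at 297 CPM on day 3.5, 321 and 359 CPM on day 4, and medians of 310 and 287 CPM. Hoxc10, of the lumbar part of the Hox code, was listed at 0 until day 4, had a median of 0.760 CPM on day 4.5 and ran from 1.73 to 81.6 CPM on day 5. So among the paralogs of group 9, Hoxb9 was already at its later level in the earliest of these cells, while Hoxa9 had 3 UMIs among all Late Spinal Cord cells of day 3.5 and 3 among those of day 4.

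Dbx1 was also near 0 in the early cells, with 1 UMI among the 2810104 of all such cells on day 3.5 and 1 among 3173001 on day 4, and had a median of 22.4 CPM on day 4.5. The nuclear receptor gene Nr2f2 went from 0.883 CPM on day 3.5 through 3.95 and 6.58 CPM on day 4 to medians of 46.5 and 63.6 CPM. Crabp2, which carries retinoic acid to its receptors, went from 70.6 CPM through 70.9 and 112 CPM to medians of 380 and 645 CPM. Cdx2 and Nr6a1 ran the other way. The caudal homeobox factor Cdx2 was at 301 CPM on day 3.5, 177 and 189 CPM on day 4, and medians of 58.7 and 52.3 CPM on days 4.5 and 5. Nr6a1, a nuclear receptor that times trunk development, was at 249 CPM on day 3.5, 186 and 219 CPM on day 4 and at medians of 86.8 and 68.3 CPM. Days 3.5 and 4 rest on 1 and 2 gastruloids and on another pool than days 4.5 and 5, so no test was made across this gap, and the pool cannot be told apart from the day.

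**Figure D2:**
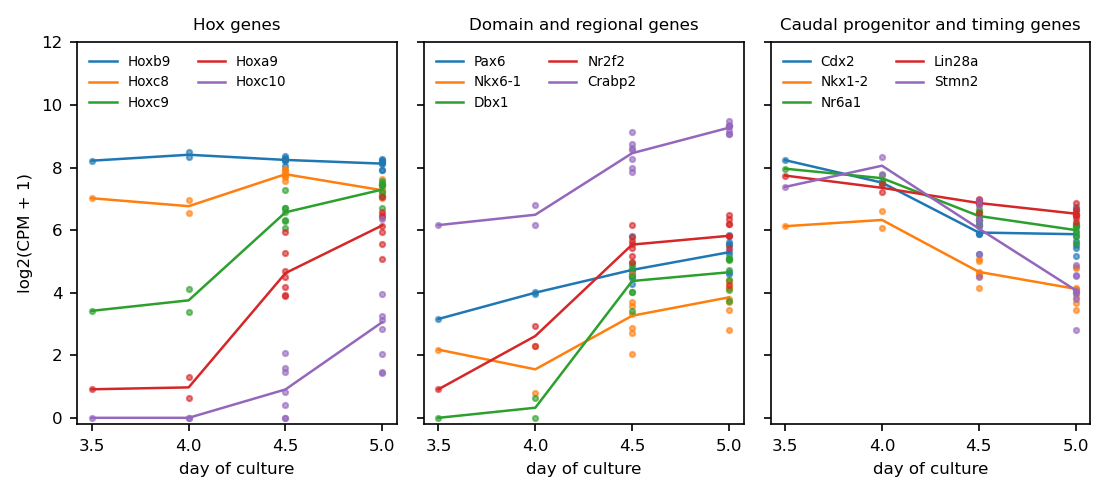
Levels of 15 genes in Late Spinal Cord cells of MULTI-seq 3 on a log2(CPM + 1) scale against day of culture. Points are gastruloids with at least 20 such cells and lines join the means of the days. Hoxa9, Hoxc9, Dbx1 and Nr2f2 are low on days 3.5 and 4 and high on days 4.5 and 5, Hoxb9 stays near 300 CPM, and Cdx2 and Nr6a1 lie lower on the later days.

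Early Spinal Cord, the type nearest in name, was set beside Late Spinal Cord within the same day 5 gastruloids, 8 in MULTI-seq 3 and 11 in MULTI-seq 1. Since the types are clusters of these transcriptomes, the differences are a description without a test. In all 19, Late cells were lower in the tail-end signal Fgf8 (15.5 ± 7.98 against 108 ± 30.8 CPM, SD, n = 8 in MULTI-seq 3), in the axial progenitor factors Cdx2 (61.7 ± 26.5 against 277 ± 29.9 CPM), Nkx1-2 (17.4 ± 6.49 against 73.6 ± 6.31 CPM) and T (5.97 ± 2.47 against 15.0 ± 3.17 CPM). The posterior Hox genes Hoxc10 (15.6 ± 27.0 against 87.3 ± 54.1 CPM), Hoxa10 (6.59 ± 8.84 against 26.4 ± 14.2 CPM) and Hoxd9 (7.16 ± 13.9 against 58.5 ± 24.3 CPM) were also lower in all 19, while Hoxb9 was higher in 15 of 19. Higher in Late cells in all 19 were Hes5 (244 ± 90.1 against 105 ± 22.7 CPM), the Notch ligand Dll1 (23.9 ± 7.81 against 5.36 ± 1.30 CPM), Nr2f2 (60.7 ± 23.0 against 3.44 ± 1.62 CPM), the neural progenitor factor Sox21 (70.6 ± 18.2 against 5.47 ± 2.47 CPM) and Crabp2 (622 ± 64.5 against 273 ± 40.2 CPM). Pax6 was higher in 8 of 8 and in 10 of 11.

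Day 5 was then compared with day 4.5 within the pool of MULTI-seq 3, over 8 and 7 gastruloids. On day 5, 8 of 15 tested glycolysis and low-oxygen genes, 5 of 11 retinoic acid genes and 6 of 25 Hox genes were higher in Late Spinal Cord cells. Lower on day 5 were 2 Hox genes, 6 of 12 genes of progenitor timing and the neuron genes Stmn2 and Tubb3. The gene lists were chosen with earlier results of these data known, so counts and medians of a list describe it and are no test. edgeR's quasi-likelihood test with Benjamini-Hochberg adjustment called 773 of 9921 genes at an adjusted p under 0.05, which is 7.79%, with 387 higher (3.9%) and 386 lower (3.89%) on day 5. The 2 days did not overlap in 174 genes (1.75%). Mean UMIs per Late Spinal Cord cell also differed, at 32892 ± 1893 (SD, n = 8) on day 5 and 35910 ± 1472 (n = 7) on day 4.5. With this depth as a covariate 194 of 10396 genes tested were called. With each cell thinned to 5000 UMIs, which left fewer genes to test, 201 of 5464 were. Of the 62 named genes that passed, 26 also passed with the covariate and 40 after thinning. A named gene that a setting did not test is counted here as not passing. All 7 day 4.5 gastruloids had been classed neural but 4 of the 8 of day 5 intermediate. Leaving out 1 gastruloid at a time, which was chosen after seeing the data, gave 482 called genes without the day 4.5 gastruloid at 26.1% Late Spinal Cord cells, and within 1.5 times of 773 without any other. Leaving out lane A gave 414 and lane C 497.

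Of the 18 glycolysis and low-oxygen genes 15 could be tested, and 8 rose, none fell and 7 did not pass, with a median log2 change of 0.36 beside 0.00 over all genes tested. Ldha, which turns pyruvate into lactate, was at 443, 538 and 662 CPM (lowest, median and highest) on day 4.5 and at 907, 1055 and 1373 CPM on day 5. The days did not overlap, and Ldha rose by 1.02 ± 0.09 on the log2 scale (SE, edgeR adjusted p = 1.8e-07). Pgk1, an enzyme of lower glycolysis, was at 263, 276 and 349 CPM and then at 389, 481 and 674 CPM, again without overlap, a log2 change of 0.79 ± 0.09 (edgeR adjusted p = 4.0e-06). Bnip3, a mitophagy receptor induced at low oxygen, went from 6.84, 10.7 and 16.6 CPM to 18.3, 32.0 and 52.5 CPM, a log2 change of 1.57 ± 0.22 (edgeR adjusted p = 5.9e-05). Pdk1, which restrains entry of pyruvate into mitochondria, rose by 1.51, the upper glycolytic enzyme Pfkl by 0.70, Pgam1 by 0.42, Pkm by 0.38 and Gapdh by 0.27. The mTORC1 inhibitor Ddit4, another gene of low oxygen and stress, went from a highest value of 20.2 CPM on day 4.5 to a lowest of 24.7 CPM on day 5 (log2 change 1.44 ± 0.25, edgeR adjusted p = 0.00062).

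Since these genes moved together, the 250 bases upstream of the starts that RefSeq gives them (build GRCm38.p6) were read for the core letters that hypoxia-inducible factors can bind, ACGTG or GCGTG on either strand. All 8 genes that rose had an entry and held the letters upstream of at least 1 start, but so did 41.5% of the 27025 genes in the table, and 38.6% of its 32851 promoters. A match is a description of the sequence and not a site. The upstream sequences of the 3 genes described above are shown with every match in capitals, 5' to 3' in the direction of the gene; that of Ldha is 1 of 2 starts, at chr7:46845554-46845803 (plus strand), Bnip3 lies at chr7:138909507-138909756 (minus strand) and Pgk1 at chrX:106186850-106187099 (plus strand).
Ldha: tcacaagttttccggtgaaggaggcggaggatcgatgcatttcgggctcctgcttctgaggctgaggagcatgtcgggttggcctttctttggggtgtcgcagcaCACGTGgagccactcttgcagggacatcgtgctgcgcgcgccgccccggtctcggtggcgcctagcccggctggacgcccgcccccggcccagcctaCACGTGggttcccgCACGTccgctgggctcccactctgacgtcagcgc
Bnip3: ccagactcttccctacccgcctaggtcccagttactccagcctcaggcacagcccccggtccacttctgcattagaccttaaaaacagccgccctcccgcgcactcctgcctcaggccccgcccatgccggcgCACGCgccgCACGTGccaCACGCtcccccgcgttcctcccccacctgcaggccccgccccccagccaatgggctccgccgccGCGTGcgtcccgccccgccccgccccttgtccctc
Pgk1: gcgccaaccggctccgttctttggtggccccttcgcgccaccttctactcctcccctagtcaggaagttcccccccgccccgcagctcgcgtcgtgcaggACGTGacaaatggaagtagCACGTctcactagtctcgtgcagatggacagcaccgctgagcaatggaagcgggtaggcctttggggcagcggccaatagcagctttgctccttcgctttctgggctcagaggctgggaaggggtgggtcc
Ldha and Bnip3 held 5 matches each in these windows and Pgk1 held 2. A stretch of CACGTG counts as 2 matches, 1 on each strand, so matches can outnumber the stretches in capitals. The other start of Ldha held 1. Of the genes not shown, Pgam1 held 3, Gapdh 2 and Pfkl 1. Pdk1 and Pkm each held 1 at 1 of their 2 starts and 0 at the other.

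Of 11 tested retinoic acid genes, 5 rose, none fell and 6 did not pass, with a median log2 change of 0.15. Crabp2 was at 232, 380 and 563 CPM on day 4.5 and at 538, 645 and 725 CPM on day 5, with the highest day 4.5 gastruloid inside the day 5 range, and rose by 0.78 ± 0.12 (log2, edgeR adjusted p = 0.00020). Its relative Crabp1 rose by 1.22 ± 0.34 (adjusted p = 0.026), and the Hox cofactors Meis1 and Meis2 by 0.73 and 0.30. Wnt4, a signalling ligand of the neural tube, was at 5.58, 8.36 and 16.2 CPM on day 4.5 and at 17.8, 23.7 and 53.0 CPM on day 5, without overlap, and rose by 1.46 ± 0.21 (edgeR adjusted p = 7.0e-05). It was the 1 member of 10 tested Wnt pathway genes that rose, while the Wnt effector Lef1 fell by 0.48 ± 0.09 (adjusted p = 0.0013), the receptor Fzd10 fell by 0.50 ± 0.09 (adjusted p = 0.00068) and 7 did not pass. Cdkn1c, an inhibitor of the cell cycle, rose by 0.73 ± 0.12 (adjusted p = 0.00026). It failed in 1 of 27 alternatives, over which its change ran from 0.34 to 0.80. Of the cell cycle lists, 0 of 16 S phase genes and 2 of 16 G2/M genes, Ccnb1 and Plk1, both lower, passed. DESeq2 also called 0 of the 16 S phase genes, and 4 had an unadjusted edgeR p under 0.05, beside 2218 of all 9921 genes tested.

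The 25 tested Hox genes split, with 6 higher and 2 lower and 17 not passing, at a median log2 change of 0.16. Hoxa9 was at 14.0, 21.4 and 60.2 CPM on day 4.5 and at 32.9, 76.8 and 131 CPM on day 5. The days overlapped, and Hoxa9 rose by 1.37 ± 0.30 (log2, edgeR adjusted p = 0.0058). With UMIs per cell as a covariate the change was 0.48 (edgeR adjusted p = 0.42). Hoxc9 was at 66.3, 95 and 156 CPM and then at 103, 172 and 188 CPM, a log2 change of 0.67 ± 0.14 (edgeR adjusted p = 0.0045) that was 0.28 with that covariate (adjusted p = 0.38). Hoxc8, the gene before it in the cluster, was at 191, 220 and 245 CPM and then at 131, 152 and 198 CPM and fell by 0.49 ± 0.08 (edgeR adjusted p = 0.00023). Hoxb8 fell by 0.24, while the anterior genes Hoxc4, Hoxd4 and Hoxb1 rose by 0.75, 0.47 and 1.23, and Hoxd8 was also higher. Hoxc4 did not overlap between the days, at 22.5 ± 4.46 CPM (SD, n = 7) on day 4.5 and 39.1 ± 5.97 CPM (n = 8) on day 5.

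Among 12 tested genes of progenitor timing, 6 fell, 1 rose and 5 did not pass, with a median log2 change of -0.12. Nr6a1 was at 72.8, 86.8 and 102 CPM on day 4.5 and at 47.4, 68.3 and 71.8 CPM on day 5, without overlap, and fell by 0.41 ± 0.08 (log2, edgeR adjusted p = 0.0014). The RNA-binding proteins Lin28a, Lin28b and Igf2bp1, which are high in early embryonic cells, fell by 0.33, 0.28 and 0.28, the trunk progenitor receptor Prtg by 0.40 and the Hippo factor Tead2 by 0.13. Hmga2, a chromatin protein of young progenitors, rose by 0.34 ± 0.06 (adjusted p = 0.00045). Of these, Tead2 failed in 6 of 27 alternatives, Prtg in 4, Lin28b in 3 and Hmga2 in 1. Over the alternatives the change of Prtg ran from -0.45 to -0.11 and that of Hmga2 from 0.18 to 0.38. Dnmt3b, the de novo DNA methyltransferase of early embryonic cells, fell by 0.49 ± 0.07 (adjusted p = 6.5e-05), and the guidance receptor Nrp2 by 0.88 ± 0.11 (adjusted p = 8.5e-06), both without overlap.

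Of 7 tested neuron genes 2 fell, Stmn2 and Tubb3, and 5 did not pass. Stmn2, a microtubule regulator of growing axons, was at 21.7, 79.5 and 124 CPM on day 4.5 and at 6.05, 15.4 and 28.8 CPM on day 5 and fell by 2.04 ± 0.25 (log2, edgeR adjusted p = 1.2e-05). Tubb3, the neuronal tubulin, was at 22.1, 30.7 and 38.5 CPM and then at 7.78, 14.3 and 19.8 CPM, without overlap, and fell by 1.10 ± 0.15 (edgeR adjusted p = 3.8e-05). The summed level of the 16 genes of that list ran from 105 to 204 CPM on day 4.5 and from 48.1 to 90.1 CPM on day 5, against 9901 CPM in Neurons, and on day 4.5 Stmn2 and Tubb3 gave means of 74.9 and 30.9 CPM of it. The motor neuron gene Chat and the transporter Slc17a6 were at 0 in all 7 day 4.5 gastruloids. Whether neurons among these cells had a part in the difference was not tested.

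Of the 18 tested pan-neural progenitor genes, 3 fell, 1 rose and 14 did not pass. Sox1 was at 80.5, 98.6 and 105 CPM on day 4.5 and at 57.7, 64.2 and 83.9 CPM on day 5 and fell by 0.43 ± 0.08 (log2, edgeR adjusted p = 0.00087). Fabp7, a fatty acid carrier of radial glia, fell by 1.21 ± 0.28 (adjusted p = 0.0086). It failed in 2 of 27 alternatives, over which its change ran from -1.52 to -0.41. The adhesion molecule Cdh2 fell by 0.19, while Sox3, another SoxB1 factor, rose by 0.21. Pax6 had a log2 change of 0.56 ± 0.19 (edgeR adjusted p = 0.082). It passed in 6 of 27 alternatives, among them UMIs per cell as a covariate (0.82, edgeR adjusted p = 0.047), thinning (0.80, adjusted p = 0.024) and leaving out the day 4.5 gastruloid with the highest level (0.92, adjusted p = 0.0013). Hes5 had a log2 change of 0.29 (adjusted p = 0.37) and Irx3 of 0.06 (adjusted p = 0.51). None of the 12 tested Notch genes passed with edgeR or with DESeq2. Of the 12, 4 had an unadjusted edgeR p under 0.05, beside 2218 of all 9921 genes tested. Of 5 dorsal genes Msx1, a BMP target, and Zic5 fell, by 1.12 and 0.65, and of 2 ventral genes Nkx6-2 fell by 1.32, from 6.98 ± 3.66 CPM (SD, n = 7) to 3.06 ± 2.55 CPM (n = 8). DESeq2 called 2 of the dorsal and 0 of the ventral genes. Nkx6-2 failed in 4 of the 24 alternatives that tested it, Msx1 in 6 of 26 and Zic5 in 7 of 26. Of the 62 named genes, 22 passed under every alternative that tested them. Among them were Ldha, Pgk1, Bnip3, Pdk1, Crabp2, Meis1, Wnt4, Ddit4, Hoxc4, Hoxc8, Lin28a, Igf2bp1, Dnmt3b, Nrp2, Stmn2 and Tubb3. Pdk1 and Meis1 were tested in 26 of the 27 alternatives. Hoxa9, Hoxc9, Sox1 and Nr6a1 were not among the 22, each failing in 1 or 2 of 27. Sox3 failed in 19 of the 27, Plk1 in 15, Hoxb8 in 14, Cdh2 in 12, Crabp1 in 11, and Hoxd8 in 10 of the 26 that tested it.

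**Figure D3:**
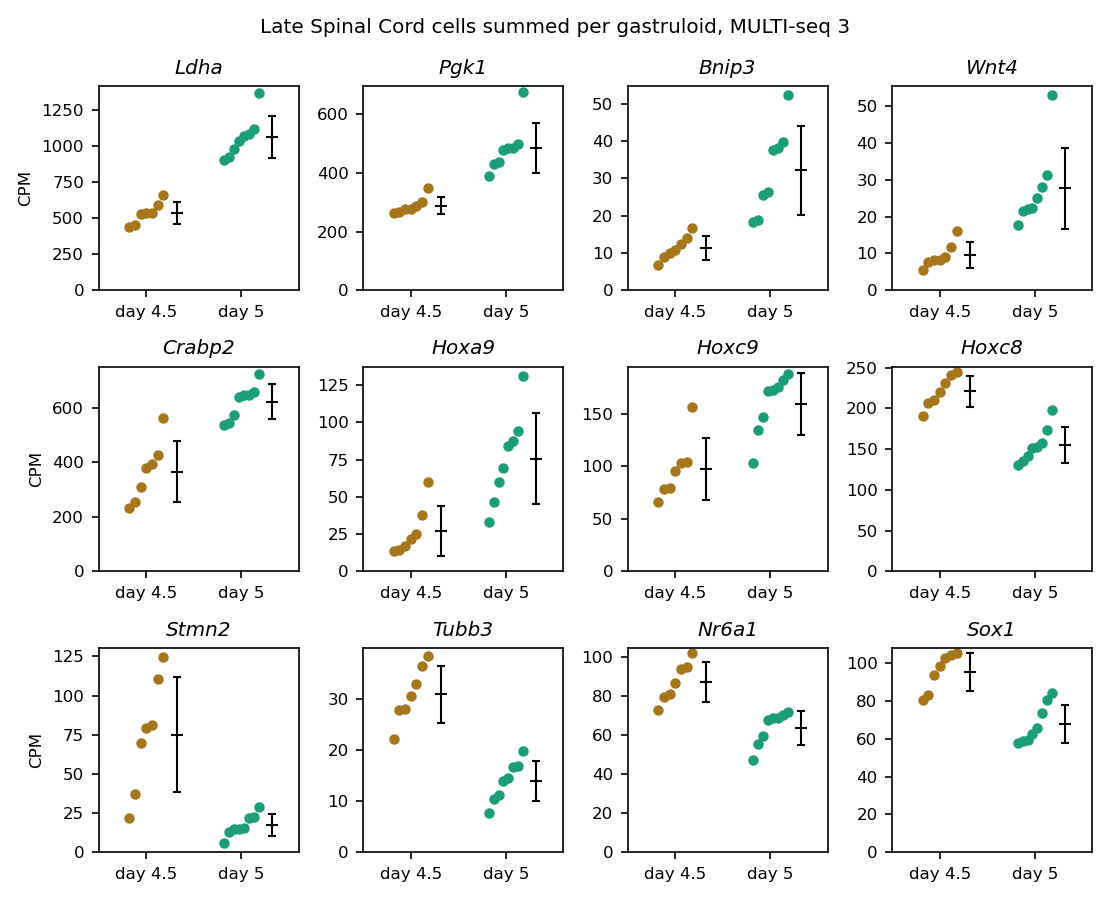
Levels in CPM of 12 genes in the Late Spinal Cord cells of MULTI-seq 3, summed per gastruloid, on day 4.5 (7 gastruloids) and day 5 (8 gastruloids). Points are gastruloids and bars are the mean ± SD. The days do not overlap for Ldha, Pgk1, Bnip3, Wnt4, Tubb3 and Nr6a1, and they overlap for Crabp2, Hoxa9, Hoxc9, Hoxc8, Stmn2 and Sox1.

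The level of a gene in Late Spinal Cord cells was also set against the share of such cells in their day 5 gastruloid, as a log2 change per 10 percentage points. Shares ran over 3.36, 4.13, 4.18, 19.8, 34.8, 35.3, 44.8, 50.9, 54.6, 61.8, 66.8 and 74.4% in MULTI-seq 1 and over 5.27, 11.9, 15.4, 20.2, 42.3, 45.9, 51.1 and 62.1% in MULTI-seq 3. edgeR called 50 of 9393 genes in MULTI-seq 1 (0.532%), 12 higher (0.128%) and 38 lower (0.405%) with rising share, and 46 of 10769 in MULTI-seq 3 (0.427%), 25 higher (0.232%) and 21 lower (0.195%). Both counts rest on few gastruloids. The 3 lowest of MULTI-seq 1 held 21 to 25 Late Spinal Cord cells each and stood apart from the other 9, and without them 1 gene was called. Without 1 of these 3 the count was 23, 28 or 16 (in the order of their shares), without the gastruloid at 61.8% it was 30, without that at 19.8% 89 and without that at 34.8% 84. Leaving out a lane, which takes gastruloids under the minimum, gave 2 to 4. In MULTI-seq 3 no gene was called with UMIs per cell as a covariate. There, 404 of 10971 genes had an unadjusted edgeR p under 0.05, beside 985 of 10769 without the covariate. The fewest UMIs per cell, 29937, were in the gastruloid at 5.27% and the most, 36147, in that at 51.1%. Without the gastruloid at 62.1% 4 genes were called, without that at 20.2% 7, at 51.1% 23, at 42.3% 25, at 11.9% 74 and at 15.4% 84. Cell type names come from the same transcriptomes, so which cells were named Late may itself move with the share.

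The 2 experiments share no gastruloids, and 7 genes were called in both, which is 14% of the MULTI-seq 1 calls and 15.2% of the MULTI-seq 3 calls, each with the same sign in both. Hes5 was at 161, 314 and 412 CPM (lowest, median and highest) in the 12 gastruloids of MULTI-seq 1 and at 113, 240 and 399 CPM in the 8 of MULTI-seq 3. Its slope was 0.10 ± 0.02 (log2 per 10 points, SE, edgeR adjusted p = 0.036) in MULTI-seq 1 and 0.20 ± 0.04 (edgeR adjusted p = 0.039) in MULTI-seq 3, so it was higher where Late Spinal Cord cells were more common. It failed in 10 of 23 alternatives in MULTI-seq 1, where its slope ran from 0.03 to 0.12 and was 0.05 without the 3 low-share gastruloids (edgeR adjusted p = 0.86), and in 6 of 19 in MULTI-seq 3 (0.14 to 0.24). The other 6 were lower there: Etv5, a transcription factor induced by FGF signalling (slopes -0.21 and -0.33), the glucose transporter Slc2a3 (-0.14 and -0.14), Hoxb4 (-0.11 and -0.12), the ephrin receptor Epha5 (-0.30 and -0.28), the glycosyltransferase Gcnt2 (-0.38 and -0.31) and Hoxaas3, an antisense RNA of the HoxA cluster whose reads may be shared with genes it overlaps (-0.10 and -0.11). Etv5 failed in 11 of 23 and 4 of 19 alternatives, Slc2a3 in 10 and 4 and Hoxb4 in 5 and 7, and 0 of the 31 and 0 of the 22 named genes of the 2 experiments passed in every one. Of 49 MULTI-seq 1 calls tested in MULTI-seq 3, 40 had the same sign there (81.6%), beside 55.2% of all 9383 genes tested in both.

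Around these 7, the experiments called different members. Counts of list members are a description here too, since the lists were chosen with earlier results of these data known. In MULTI-seq 1, 10 of 16 tested glycolysis and low-oxygen genes fell with the share and none rose, at a median slope of -0.09 beside 0.00 over all genes, among them Ldha (-0.12 ± 0.02, edgeR adjusted p = 3.2e-05), Pgk1 (-0.14 ± 0.02, adjusted p = 0.00015) and Pfkp (-0.50 ± 0.10, adjusted p = 0.0053). Cdx2 fell by 0.25 ± 0.04 per 10 points (adjusted p = 0.00011), from 249 to 345 CPM in the 3 lowest-share gastruloids to at most 115 CPM in the other 9. Id1, a BMP target, fell by 0.23, and Gfra3, a receptor subunit for GDNF family ligands, rose by 0.19 ± 0.03 (adjusted p = 0.00079). Transcripts that are often read as signs of RNA quality also moved with the share. Gm42418, which overlaps ribosomal RNA sequence, rose by 0.13 ± 0.01 (edgeR adjusted p = 6.1e-06). That was the lowest adjusted p of all genes tested in MULTI-seq 1, those that fell included. The mitochondrial mt-Cytb rose by 0.07 (adjusted p = 0.0023) and mt-Nd4 by 0.04 (adjusted p = 0.022), while mt-Nd6 fell by 0.10 (adjusted p = 0.037), and their part in the other slopes was not tested. In MULTI-seq 3 the slope of Gm42418 was -0.06 (adjusted p = 0.43). There, only 1 of the 16 tested glycolysis and low-oxygen genes, Slc2a3, passed, and 4 of 11 FGF feedback genes fell (Etv4, Etv5, Dusp6 and Spry2) while Fgfbp3 rose. Pax6 rose by 0.17 ± 0.03 (edgeR adjusted p = 0.044), Dll1 by 0.21 ± 0.04 (adjusted p = 0.021), the receptor Notch1 by 0.09 and Nr2f1 by 0.33, while Hoxa9 fell by 0.26 ± 0.05 (adjusted p = 0.032), Hoxb2 by 0.15 and T by 0.26. Of these MULTI-seq 3 slopes, Notch1 failed in 12 of 19 alternatives, Pax6 in 11, Hoxb2 in 9, Hoxa9 and T in 6 each, Dll1 in 4 and Nr2f1 in 3. DESeq2 called 0 of the 4 markers there. Whether slopes of a gene differed between the experiments was not tested.

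The genes that fell with the share were mostly those higher in Early than in Late Spinal Cord cells of the same gastruloids: 32 of 38 in MULTI-seq 1 (84.2%, beside 41.6% of all genes tested) and 21 of 21 in MULTI-seq 3 (beside 36.3%). Of the genes that rose, 1 of 12 and 0 of 25 were higher in Early cells. These counts are a description without a test, since the 2 names are clusters of the same transcriptomes and the same Late values enter the slope and the difference between the types. Without the 3 low-share gastruloids of MULTI-seq 1 no gene fell with the share there.

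**Figure D4:**
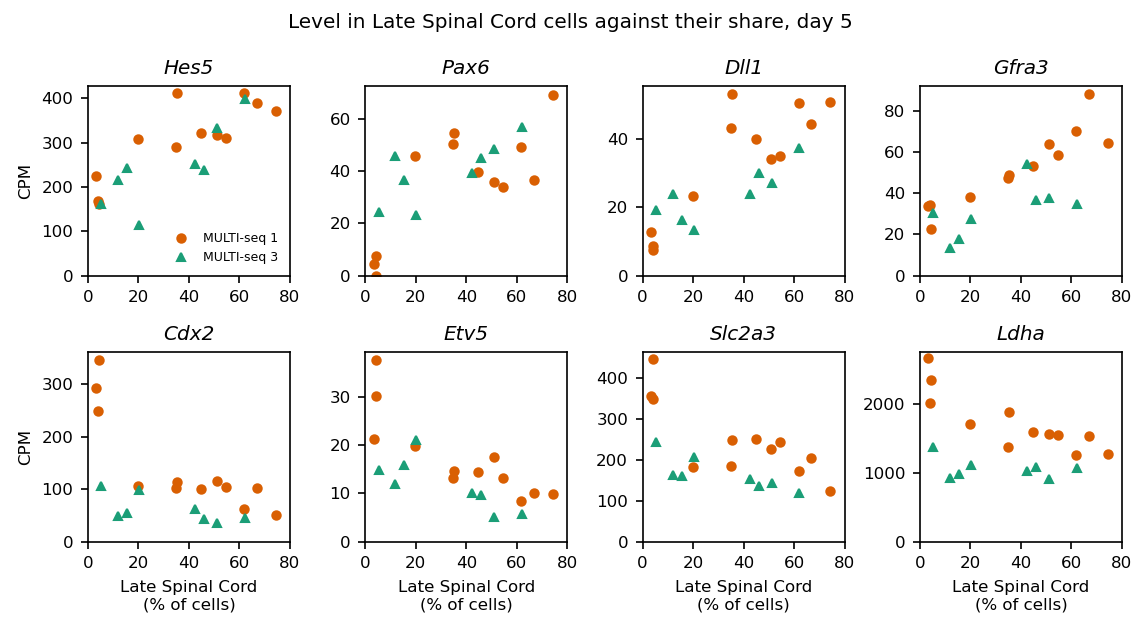
Level in CPM of 8 genes in Late Spinal Cord cells against the percent of Late Spinal Cord cells in the gastruloid, day 5. Circles are the 12 gastruloids of MULTI-seq 1 and triangles the 8 of MULTI-seq 3. Hes5 rises and Etv5 and Slc2a3 fall along the axis in both experiments, and the 3 circles under 5% stand apart for Cdx2, Pax6 and Dll1.

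Day 5 gastruloids varied most in Cdx2, Ddit4, Hoxa9 and Pou3f2. Among 3681 genes with at least 32 CPM in both day 5 groups, the biological coefficient of variation that edgeR estimated had a median of 0.0507 in MULTI-seq 1 and 0.0515 in MULTI-seq 3. The highest mean rank over both groups was that of Cdx2 (0.364 and 0.285), followed by Ddit4 (0.213 and 0.328), Hoxa9 (0.213 and 0.292) and Pou3f2, a neural POU factor (0.232 and 0.281). The next in order were Cdkn1a, Ndnf, Slc2a3, Sfrp1, Tubb2b and Hes5. Cdx2 ran from 50.3 to 345 CPM, with only the 3 low-share gastruloids above 115 CPM, and from 34.9 to 106 CPM, and Hoxa9 from 40.1 to 169 CPM and from 32.9 to 131 CPM. Across genes, the 2 sets of coefficients had a Spearman correlation of 0.236, which is a description since genes are not independent replicates.

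Finally, 8 pairs of patterning and Notch genes were compared across day 5 gastruloids on the log2(CPM + 1) scale, 16 relations over both experiments. The 3 low-share gastruloids of MULTI-seq 1 formed a separate cluster, so values are given for the 9 others and for the 8 of MULTI-seq 3, with exact permutation tests and adjustment over the 16. Hes5 and the Notch ligand Dll1 gave Pearson's r = 0.700 (exact permutation p = 0.0272, adjusted p = 0.0972) and Spearman's rho = 0.733 (exact permutation p = 0.0311, adjusted p = 0.244) in MULTI-seq 1. In MULTI-seq 3 r was 0.833 (exact permutation p = 0.0110, adjusted p = 0.0624) and rho 0.738 (exact permutation p = 0.0458, adjusted p = 0.244). When the 2 gastruloids with Hes5 levels farthest from its median were left out, r was 0.533 and 0.456. Dorsal Pax3 and ventral Nkx6-1 gave r = -0.775 (exact permutation p = 0.00851, adjusted p = 0.0624) and rho = -0.617 (exact permutation p = 0.0857, adjusted p = 0.274) in MULTI-seq 1, and r = -0.864 (exact permutation p = 0.0117, adjusted p = 0.0624) and rho = -0.690 (exact permutation p = 0.0694, adjusted p = 0.274) in MULTI-seq 3. Leaving out the corresponding 2 gastruloids took r to -0.111 and -0.532. In MULTI-seq 1 the relation of Pax3 and Nkx6-1 thus rests on those gastruloids. None of the 16 had an adjusted p under 0.05 in this form, and the 12 not described here had adjusted p-values of Pearson's r from 0.0972 to 0.771. With the 3 low-share gastruloids included, as the test had been laid out, 4 of the 16 passed for Pearson's r: Hes5 and Dll1 (adjusted permutation p = 0.00048) and Dbx1 and Pax7 (adjusted p = 0.0030) in MULTI-seq 1, and Hes5 and Dll1 and Pax3 and Nkx6-1 in MULTI-seq 3 (both adjusted p = 0.0468), where r is as above and the adjustment differs. For Spearman's rho only the 2 of MULTI-seq 1 passed in that form, and the 2 of MULTI-seq 3 did not (adjusted p = 0.152 and 0.185). Pax3 and Nkx6-1 in MULTI-seq 1 were only weakly related in that form. Over all 12 gastruloids r was -0.152 (permutation test, adjusted p = 0.699) and rho -0.301 (permutation test, adjusted p = 0.494). The relation of Dbx1 and Pax7 in MULTI-seq 1 had r = 0.467 without the 3 low-share gastruloids (exact permutation test, adjusted p = 0.328). Leaving out lane 1 took its r to -0.0383.

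**Figure D5:**
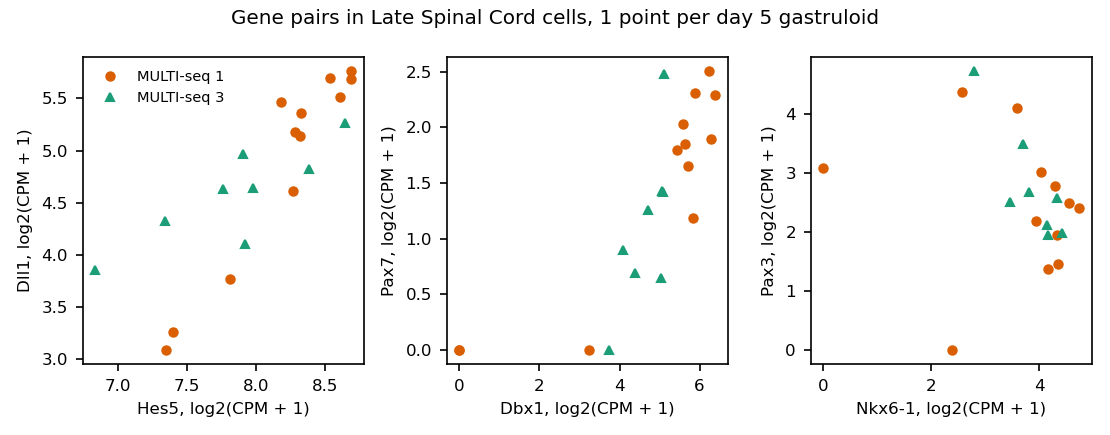
Levels of 3 gene pairs in Late Spinal Cord cells on log2(CPM + 1) axes, with 1 point per day 5 gastruloid (circles, MULTI-seq 1; triangles, MULTI-seq 3). Without the 3 low-share circles, r is 0.700 in MULTI-seq 1 and 0.833 in MULTI-seq 3 for Hes5 and Dll1, and -0.775 and -0.864 for Pax3 and Nkx6-1, with no adjusted p under 0.05. With these 3 circles, r of Pax3 and Nkx6-1 in MULTI-seq 1 is -0.152. The 3 low-share gastruloids of MULTI-seq 1 lie at the lower left of the Hes5 and Dbx1 panels.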

How the data were processed

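Single-cell RNA was captured with the 10x 3' v3.1 chemistry per the labels' protocols. The deposited matrices hold UMI counts of 32285 genes. Per the file headers Cell Ranger 6.0.0 produced them, on mm10 per the submitters' processing notes. Cell type names, gastruloid barcode calls, days and embryo mapping came from the authors' deposited cell table, and 9 of its cells had no barcode in a matrix. UMI counts per cell were summed from the matrices. They equalled the counts in that table in all lanes of MULTI-seq 2 and MULTI-seq 3. In the 10X and MULTI-seq 1 lanes they did not, at median ratios to it of 1.02 to 1.03, and the reason was not tested. No source used here says how doublets were removed, and no doublet caller was run. Of MULTI-seq 2, the samples of days 3 and 3.5 were not analysed here.

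Counts of Late Spinal Cord cells were summed per gastruloid over lanes, which are technical splits. Gene tests used gastruloids with at least 20 such cells and edgeR 4.0.16 (R 4.3.3; filterByExpr, TMM, glmQLFit and glmQLFTest) on those sums, at an adjusted p under 0.05. DESeq2 1.42.0, other filters and minimums, depth covariates, thinning, left-out lanes and left-out gastruloids were alternatives. Shares of cell types used gastruloids with at least 30 cells and two-sided permutation tests (scipy 1.17.1), with 100000 resamples in groups of 10 or more and exact otherwise. On simulated counts for the comparison of days, 99.0% of the genes changed by a log2 of 1 that passed the filter were recovered and 0.114% of unchanged genes were called, over 9833 genes.

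The named genes were the 10 with the largest change in each direction among called genes with at least 32 CPM, the called members of 28 gene lists, and the 4 markers. The members and lists were chosen with earlier results of these data known. Of the list members, 357 were uniquely named in the matrices. Promoter sequences are RefSeq's.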

Additional observations from a re-analysis of the deposited data

Results flagged for a closer look

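In 54 combinations of a gene and a group of 4 to 10 gastruloids, 5 had a highest or lowest gastruloid farther from its neighbour than Dixon's 95% critical value allows, and chance gives about 1 in 20 of such groups. On day 5 of MULTI-seq 3, 1 gastruloid held 1373 CPM of Ldha, with the next at 1122 CPM. In the same group 1 gastruloid held 53.0 CPM of Wnt4, with the next at 31.3 CPM. On day 4.5 of MULTI-seq 3, 1 gastruloid held 55.0 CPM of Pax6 with the next at 25.3 CPM, 1 held 156 CPM of Hoxc9 with the next at 104 CPM, and 1 held only 101 CPM of Irx3 with the next at 119 CPM. The comparison of day 5 with day 4.5 was repeated without each gastruloid in turn: Ldha, Wnt4 and Hoxc9 passed each time, and Irx3 did not pass in any. Pax6, which had not passed (log2 change 0.56, edgeR adjusted p = 0.082), passed without the day 4.5 gastruloid at 55.0 CPM (0.92, adjusted p = 0.0013) and without 1 day 5 gastruloid (0.64, adjusted p = 0.021). Hoxc9 did not pass with UMIs per cell as a covariate (0.28, adjusted p = 0.38) or after thinning (0.47, adjusted p = 0.055).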

How the results depend on the processing

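No paired analysis was possible because gastruloids carry no replicate number shared between groups. Direction is day 5 minus day 4.5, MULTI-seq 3 minus the other experiment, or change with rising share. The day comparison (773 of 9921 genes, 387 higher, 386 lower) gave 194, 89 and 105 of 10396 with UMIs per cell as a covariate. After thinning it gave 201, 123 and 78 of 5464, where 61.2% of calls were higher beside 50.1%. Left-out lanes or gastruloids gave 414 to 886, 212 to 456 and 202 to 441. The cause of these moves was not tested. The slopes in MULTI-seq 1 (50, 12 and 38) gave 100, 21 and 79 with DESeq2, 109, 47 and 62 without a filter, 113, 46 and 67 at a minimum of 10 cells, 1, 1 and 0 at 50 cells, which leaves 9 gastruloids, and 24, 6 and 18 with robust fitting. With the share of all neural types 5 were higher. Left-out lanes or gastruloids gave 2 to 89, 0 to 23 and 1 to 68. In MULTI-seq 3 (46, 25 and 21) the counts were 109, 58 and 51 without a filter, 26, 14 and 12 with robust fitting, 0, 0 and 0 with UMIs per cell, 35 lower with DESeq2, and 4 to 84, 4 to 45 and 0 to 39 with left-out lanes or gastruloids. The MULTI-seq 1 slopes of Irx3 and Pax6, which had not passed, changed sign: Irx3 to -0.0136 at 50 cells, and over left-out lanes or gastruloids Irx3 ran from -0.0191 to 0.0269 and Pax6 from -0.0444 to 0.153.

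No share comparison passed under any alternative, but signs changed: day 5 against day 4.5 of all cells became -0.0839 on the logit scale, and of Early plus Late -2.20 at higher cell minimums. MULTI-seq 3 against MULTI-seq 1 of Early plus Late became 0.0741 on the logit scale and 0.114 at higher minimums, with left-out lanes at -3.97 to 1.88. Against MULTI-seq 2 it became 0.272 on the logit scale and 3.72 at higher minimums, with left-out lanes at -5.91 to 1.08. With left-out lanes, MULTI-seq 3 against MULTI-seq 2 ran from -0.247 to 1.10 of all cells, and from -0.721 to 0.581 for Neurons. Pearson's r changed sign between left-out lanes for Pax7 and Nkx6-1 (-0.0510 to 0.574), Pax7 and Olig2 (-0.0617 to 0.463), Dbx1 and Pax7 (-0.0383 to 0.757) and Neurog2 and Dll1 (-0.265 to 0.603) in MULTI-seq 1, and for Nkx6-1 and Olig2 (-0.777 to 0.0166) and Pax7 and Olig2 (-0.525 to 0.00516) in MULTI-seq 3. The cause was not tested. A test of genes between days 4.5 and 4 of MULTI-seq 2 was not run, as 0 gastruloids of day 4 had 20 Late Spinal Cord cells.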
